A study of Mus musculus with 5 samples.

Results

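Between neighbouring H3K4me1 regions of transformed mouse hematopoietic progenitors lay 30381 gaps of 150 to 1500 bp, out of 100169 spaces between consecutive regions on the same chromosome. A gap ran from the base after one region of the deposited H3K4me1 peak list to the base before the next. The gaps were chosen by their measured length, and they were sorted by whether the summit of a Hoxa9 peak or of a C/EBPα peak fell inside. A summit is the base at which the peak caller placed the highest pile of reads. Of the 30381 gaps, 380 held summits of both factors, 247 held Hoxa9 alone, 1201 held C/EBPα alone and 28553 held neither. Because the positions of the H3K4me1 regions and of the summits made the classes, class sizes and gap lengths are descriptions and carry no test.

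Chromatin immunoprecipitation followed by sequencing (ChIP-seq) had been run on bone marrow cells of C57B6 mice that were depleted of mature lineages. The cells carried 2 MIGR1 retroviruses, one with HA-tagged Hoxa9 and one with Flag-tagged Meis1, and they were kept in medium with IL3. Every library came from these doubly transduced cells, so none represents untransduced marrow, and the Hoxa9 detected is the tagged protein from the virus. The series held 5 libraries: Hoxa9 (anti-HA), C/EBPα, H3K4me1, H3K27me3 and input, 1 of each, and the input was not used here. With 1 library per precipitation there were no replicates, so no p-value is given. The intervals printed beside shares are exact Clopper-Pearson 95% intervals, and they cover counting error only.

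H3K4me1 is the monomethylated form of lysine 4 on histone H3, a mark of nucleosomes at active and primed enhancers. Regulatory proteins commonly contact DNA in stretches where nucleosomes are displaced, so that marks carried by nucleosomes can flank a bound site on both sides. Hoxa9 is a homeodomain protein of the stem and progenitor compartment that is often overexpressed in acute myeloid leukemia, and Meis1 is a homeodomain cofactor that shares sites with it. C/EBPα is a leucine zipper protein that drives the granulocyte and monocyte lineages. The lists hold no H3K4me1 value inside a gap, so how far the mark drops there was not analysed here, and neither was the share of each gap to which reads can be mapped.

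The Hoxa9 list had 6578 rows, the C/EBPα list 26446, the H3K4me1 list 100189 and the H3K27me3 list 33769. The weakest rows had 17, 15, 14 and 20 tags in that order of lists. The gaps covered 18.9 Mb, and their median length was 515 bp (quartiles 290 and 905 bp). The other spaces were shorter than 150 bp in 14321 cases and longer than 1500 bp in 55467 cases. Gaps were not independent of each other: 50642 H3K4me1 regions, 50.5% of the list, flanked at least 1 gap, and 10120 of these lay between 2 gaps.

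To give a level to read the counts against, the summits of both factor lists were moved together along their chromosomes by 10, 20, 30, 40 and 50 kb in both directions and were counted again in the same gaps. These 10 placements keep the number, strength and pairing of the summits and change only where they fall. They are a descriptive level and not a test. A summit moved by such a distance can still land among other H3K4me1 regions of its own neighbourhood, so the level depends on the distance. Where a moved share is printed with an interval, the 10 moves were pooled. The same summits and gaps recur in these moves and are not independent counts, so such an interval is only a rough guide.

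Hoxa9 summits lay in 627 gaps, 2.06% of all (95% interval 1.91 to 2.23%), against 0.509% on average after the move (118 to 196 gaps over the 10 moves). C/EBPα summits lay in 1581 gaps, 5.20% (4.96 to 5.46%), against 2.1% after the move (529 to 783 gaps). Both observed counts were above every one of the 10 moved counts, by 4.06 times the mean for Hoxa9 and 2.48 times for C/EBPα. A summit of at least 1 of the factors lay in 1828 gaps, 6.02%, against 2.34% after the move. Most gaps therefore held no summit of either factor, with 94.0% in that class. A gap of that class can still be overlapped by a peak whose summit lies outside it. Any overlap of a peak was found in 3.66% of all gaps for Hoxa9 and in 10.5% for C/EBPα. These shares were 3.24 and 2.38 times those of moved peaks.

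The class with both factors stood furthest above its moved level. It held 1.25% of gaps (1.13 to 1.38%), against 0.262% after the move (52 to 104 gaps), a ratio of 4.77. Hoxa9 alone was found in 0.813% of gaps (0.715 to 0.920%), against 0.247% after the move, a ratio of 3.30. C/EBPα alone was found in 3.95% (3.74 to 4.18%), against 1.84% after the move, a ratio of 2.15. Among gaps with Hoxa9, 60.6% (56.7 to 64.5%) also held C/EBPα, against 51.5% (49.0 to 54.0%) of those that moved Hoxa9 summits landed in. These shares are not at like gap length: the median length with both factors was 495.5 bp observed and 900.5 bp after the move. Among gaps with C/EBPα, 24.0% also held Hoxa9. A gap rarely held more than 1 summit of a factor: 1 gap had 2 Hoxa9 summits and 8 gaps had 2 C/EBPα summits.

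The ratios changed with the distance of the move. With moves of 2 to 10 kb the share of gaps hit was 0.897% for Hoxa9 and 3.25% for C/EBPα, which put the observed shares at 2.30 and 1.60 times that level. With moves of 200 to 1000 kb it was 0.230% for Hoxa9 and 0.989% for C/EBPα, and the ratios were 8.98 and 5.26. When the 2 lists were moved in opposite directions, which separates the paired summits, the class with both factors stood 60.3 times above its moved level. The observed shares exceeded the moved ones in all of these settings, and the size of the excess is a property of the chosen distance.

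From short to long gaps the Hoxa9 and C/EBPα shares followed different courses. Hoxa9 summits lay in 2.06% of gaps of 150 to 249 bp, 2.51% of those of 250 to 499 bp and 2.63% of those of 500 to 749 bp. The share was 1.56% at 750 to 999 bp, 1.43% at 1000 to 1249 bp and 1.03% at 1250 to 1500 bp. A moved summit hits a long gap more easily than a short one, and the moved share of Hoxa9 accordingly went up along the same bins, 0.159% at the shortest and 1.11% at the longest. The ratio of observed to moved shares thus declined along the bins, with 13, 8.05, 5.05, 2.22, 1.63 and 0.926. In the longest bin the observed share of Hoxa9 was inside the range of the 10 moves (0.719 to 1.61%).

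C/EBPα summits lay in 3.73% of the shortest gaps and in 5.12%, 5.90%, 4.83%, 6.47% and 6.13% of the following bins. Its ratios to the moved summits were 5.34, 4.07, 2.92, 1.62, 1.71 and 1.36, and the observed share was above the highest of the 10 moves in each bin. The class with both factors peaked at 1.83% in gaps of 500 to 749 bp (100 of 5479 gaps), and its ratio was 15.3 in the shortest bin and 0.870 in the longest.

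**Figure D1:**
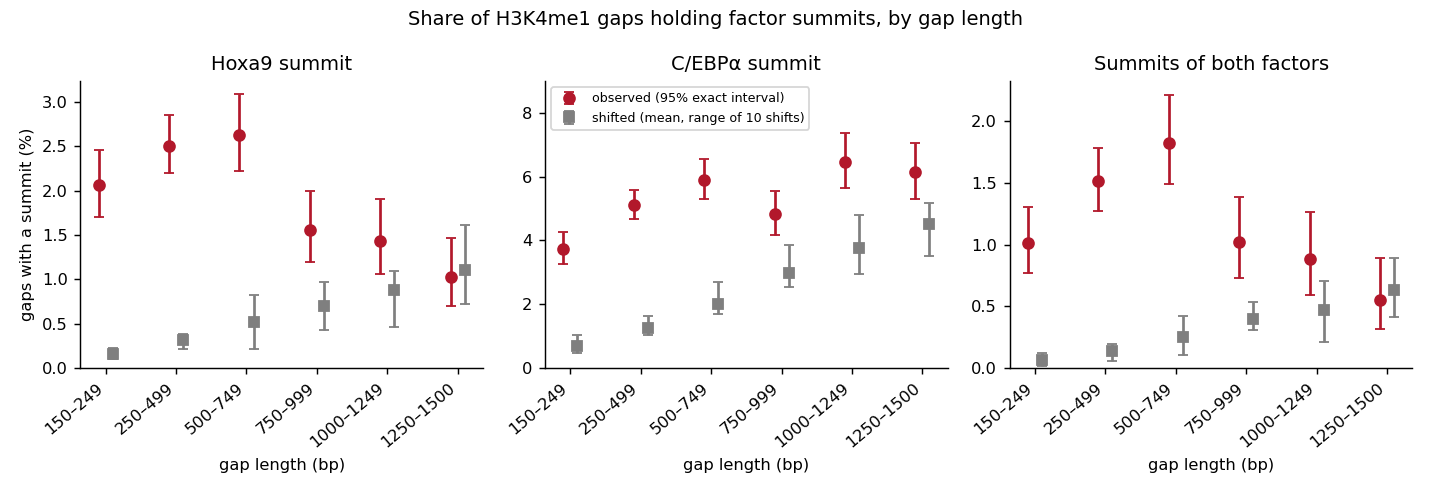
Percentage of H3K4me1 gaps (y axis) that held a Hoxa9 summit, a C/EBPα summit or both, by gap length in bp (x axis). Red circles are observed shares with exact 95% intervals, and grey squares are the mean of 10 moves of the summits by 10 to 50 kb with their range. The Hoxa9 share lies above the moved range up to 1249 bp and inside it at 1250 to 1500 bp.

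Across the lower length bound the factor content differed in wide bins. Hoxa9 lay in 0.699% of spaces of 100 to 149 bp and in 2.06% of gaps of 150 to 249 bp. C/EBPα lay in 2.07% and 3.73% of them. Of gaps of 150 to 159 bp, just inside the bound, 8 of 653 held Hoxa9 and 17 of 653 held C/EBPα. Of spaces of 140 to 149 bp, just outside, 5 of 662 held Hoxa9 and 16 of 662 held C/EBPα. At the upper bound, 1 of 105 gaps of 1491 to 1500 bp held Hoxa9 and 7 held C/EBPα, while of 100 spaces of 1501 to 1510 bp none held Hoxa9 and 7 held C/EBPα. The counts just inside and just outside a bound are too small to set one side apart from the other.

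Gaps were next set against the H3K4me1-marked DNA beside them. For 17792 gaps (58.6%) both flanking regions were at least as wide as the gap, so that a window of the gap's own length could be laid into each flank, directly next to the gap. Hoxa9 summits numbered 462 in the gaps and 428 in the 2 windows together, which gave 2.16 times as many per kb in the gaps (exact binomial 95% interval 1.89 to 2.47). C/EBPα summits numbered 950 in the gaps and 1434 in the windows, 1.32 times as many per kb in the gaps (1.22 to 1.44). This comparison leaves out most long gaps, since only 15.8% of gaps of 750 bp or more had flanks wide enough.

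The Hoxa9 ratio of gap to window was 2.09 at 150 to 249 bp, 2.28 at 250 to 499 bp, 3.02 at 500 to 749 bp and 1.30 at 750 to 1500 bp, and the last interval included 1 (0.874 to 1.90). C/EBPα had ratios of 1.34, 1.54 and 1.68 in the first 3 bins and 0.749 (0.608 to 0.919) in the longest. Among gaps with flanks wide enough for this comparison, C/EBPα summits were thus sparser than in the marked DNA beside them at 750 bp or more. In shorter gaps of this kind they were denser.

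The density of summits around the gap centres showed the same contrast without any limit on flank width. In gaps of 150 to 299 bp Hoxa9 reached 104 summits per kb per 1000 gaps in the 100 bp window just before the centre, against 9.24 for moved summits. C/EBPα reached 195 in that window, against 35.2 for moved summits. In gaps of 300 to 599 bp the corresponding values were 81.4 against 9.76 for Hoxa9 and 135 against 36.7 for C/EBPα. In gaps of 600 to 1500 bp Hoxa9 had 21.3 just before the centre, against 6.69 for moved summits. The window just after the centre had 27.4, and the highest value for Hoxa9, 29.6, lay 1350 bp after the centre. C/EBPα had 60.0 just before the centre of the long gaps, against 36.0 for moved summits, and its highest value lay in the outermost window, with 119 at 1450 bp before the centre.

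**Figure D2:**
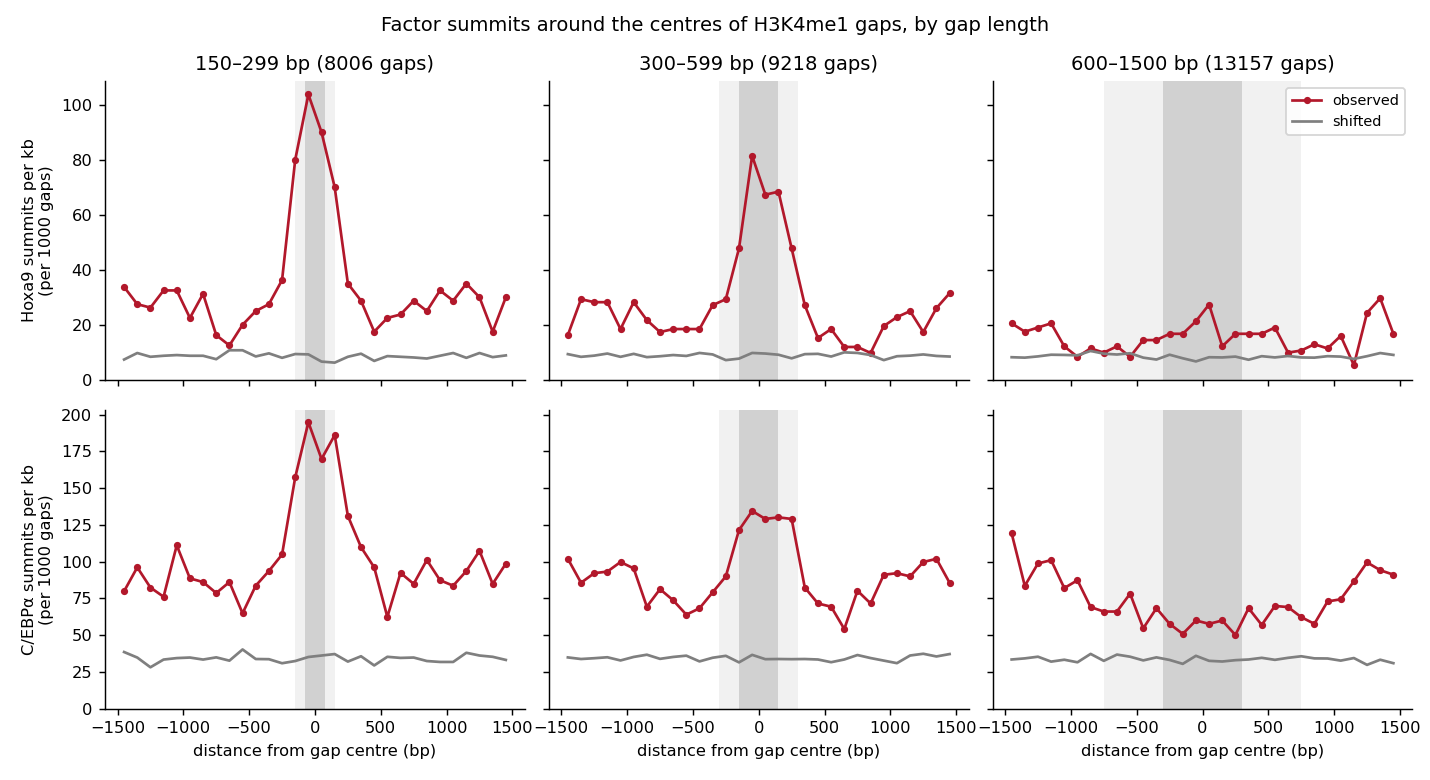
Hoxa9 (top row) and C/EBPα (bottom row) summits per kb per 1000 gaps (y axis) in 100 bp windows by distance from the gap centre in bp (x axis), for 3 classes of gap length. Red is observed, and grey is the mean of 10 moves by 10 to 50 kb. Dark shading marks the length of the shortest gaps of the class and light shading that of the longest, and both factors peak over the gap in the 2 shorter classes while C/EBPα is lowest over the gap in the longest.

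Within a gap the summits were spread widely. Of 628 Hoxa9 summits, 233 lay in the central 33.3% of their gap, 37.1% (33.3 to 41.0%), against 32.8% (30.5 to 35.2%) of moved summits and 33.3% under an even spread. The Hoxa9 share was 45.8% (37.5 to 54.3%) in gaps of 500 to 749 bp, against 36.8% (31.2 to 42.7%) of moved summits. In gaps under 250 bp it was 28.0% (20.1 to 37.0%), against 34.1% (24.5 to 44.7%). The interval at 500 to 749 bp lay above the 33.3% of an even spread. The intervals of observed and moved shares overlapped in each of these comparisons. Such overlap does not settle whether Hoxa9 lay nearer the centre than moved summits did, and the difference was not tested.

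C/EBPα summits showed no preference for the centre over all gaps. Of 1589 summits, 32.7% (30.4 to 35.1%) lay in that central stretch, against 33.1% (31.9 to 34.3%) of moved summits. In gaps of 750 to 1500 bp the share was 28.9% (25.3 to 32.8%), against 32.2% (30.7 to 33.7%). The median distance from a summit to the nearer edge of its gap was 112 bp for Hoxa9 and 121 bp for C/EBPα. The first 10% of the gap's length, at its lower coordinate, held 6.21% of Hoxa9 summits and the last 10% held 10.03%, and 50.6% of Hoxa9 summits lay on the side of higher coordinates.

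**Figure D3:**
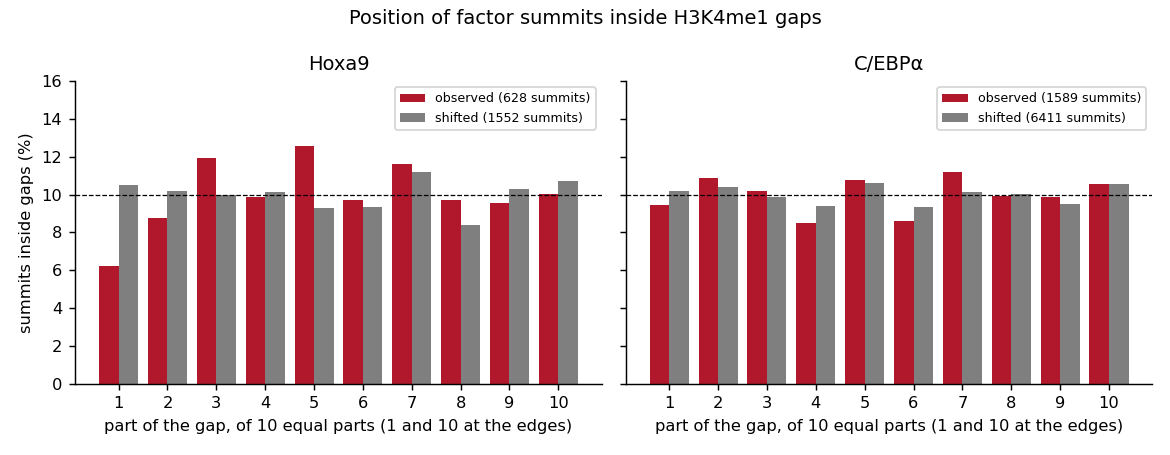
Percentage of the summits inside gaps (y axis) that fell in each of 10 equal parts of the gap's length (x axis, from the lower to the higher coordinate), for Hoxa9 and C/EBPα. Red bars are observed summits, grey bars are summits moved by 10 to 50 kb, and the dashed line is the 10% of an even spread. Observed bars run between 6.21 and 12.6% for Hoxa9 and between 8.5 and 11.2% for C/EBPα.

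In gaps with both factors the summits were close to one another. The median distance between the Hoxa9 and the C/EBPα summit of a gap was 51.5 bp (quartiles 24 and 102 bp), and 74.7% of the 380 gaps had them within 100 bp. The gap length bounds this distance: its median was 39 bp in gaps of 150 to 299 bp, 53 bp in gaps of 300 to 599 bp and 67 bp in gaps of 600 to 1500 bp. The largest distance was 706 bp.

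The factor peaks were often wider than the gap that held their summit. Of Hoxa9 peaks with a summit in a gap, 58.3% (54.3 to 62.2%) reached into both flanking H3K4me1 regions, and 8.76% touched neither. For C/EBPα these shares were 42.6% (40.2 to 45.1%) and 13.8%. In gaps of 150 to 299 bp almost every such peak reached both flanks, 96.0% for Hoxa9 and 94.5% for C/EBPα. In gaps of 600 to 1500 bp 16.3% and 7.49% did.

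The strength of binding differed between places. Fold enrichment, the ratio over background that the caller gave each peak, had a median of 7.29 for the 628 Hoxa9 peaks with a summit in a gap. It was 6.36 for the 4515 with a summit in an H3K4me1 region and 5.42 for the 1435 elsewhere. For C/EBPα the medians were 9.79 in gaps, 8.35 in regions and 6.60 elsewhere. In gaps of 150 to 299, 300 to 599 and 600 to 1500 bp they were 11.4, 10.4 and 8.79 for C/EBPα. For Hoxa9 these 3 medians were 7.60, 7.565 and 7.06. The C/EBPα median in the longest gaps was thus close to that in regions. The gap median exceeded the region median on 20 of 20 chromosomes for Hoxa9 and on 19 of 20 for C/EBPα, with mean values over chromosomes of 7.45 ± 0.94 in gaps and 6.30 ± 0.30 in regions for Hoxa9 (SD, n = 20 chromosomes of 1 library). For C/EBPα they were 9.93 ± 1.52 in gaps and 8.31 ± 0.33 in regions.

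Peaks of both factors were stronger where the other factor was in the same gap. The median fold enrichment of Hoxa9 was 7.72 in gaps with both factors and 6.86 in gaps with Hoxa9 alone. That of C/EBPα was 14.3 in gaps with both factors and 8.56 in gaps with C/EBPα alone. The value for C/EBPα alone was close to the 8.35 of C/EBPα peaks in regions, which were not split by the partner factor. Peaks in gaps were also wider than peaks in regions, with a median of 760 bp against 684 bp for Hoxa9 and 718 bp against 679 bp for C/EBPα. In gaps with C/EBPα alone the median width of the C/EBPα peaks was 680 bp.

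Strong peaks were placed in gaps more often than weak ones. Among Hoxa9 peaks whose summit lay either in a gap or in a region, the share in a gap was 8.45% (6.83 to 10.3%) in the weakest of 5 equal bins by fold enrichment. It was 9.82%, 11.6% and 12.7% in the following bins and 18.5% (16.1 to 21.0%) in the strongest. For C/EBPα it was 7.45%, 7.91%, 7.42% and 9.42% in the first 4 bins and 11.5% (10.4 to 12.5%) in the strongest. The intervals of the weakest and the strongest bin did not overlap for either factor.

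**Figure D4:**
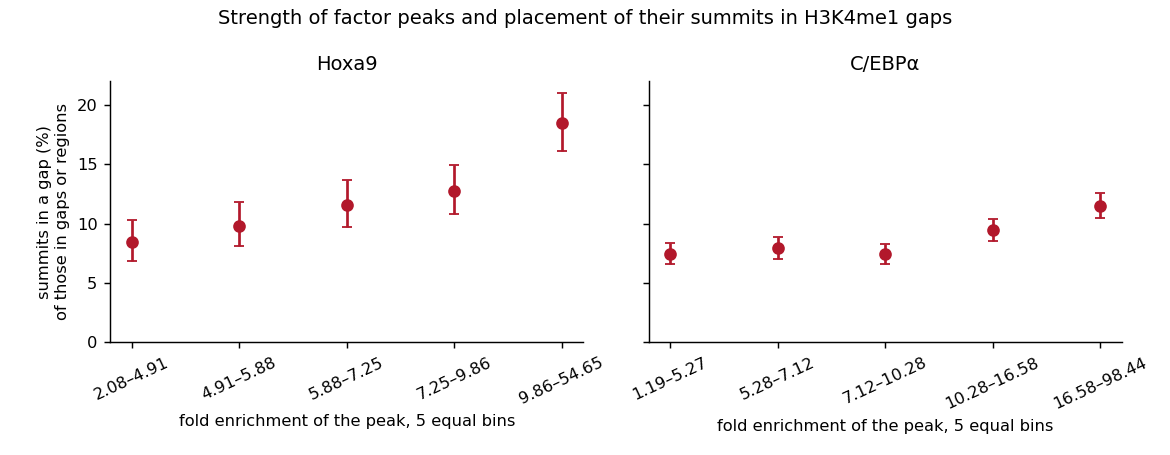
Percentage of summits that lay in a gap (y axis), of those in a gap or an H3K4me1 region, by 5 equal bins of the peak's fold enrichment (x axis, weak to strong, with the range of each bin). Bars are exact 95% intervals. The share is 8.45% in the weakest and 18.5% in the strongest Hoxa9 bin, and 7.45 and 11.5% for C/EBPα.

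The partner factor was within 100 bp more often in gaps than in regions. A C/EBPα summit lay within 100 bp of 49.0% (45.1 to 53.0%) of Hoxa9 summits in gaps and of 38.4% (37.0 to 39.9%) of those in regions. A Hoxa9 summit lay within 100 bp of 19.2% (17.3 to 21.2%) of C/EBPα summits in gaps and of 10.5% (9.996 to 10.9%) of those in regions. The contrast shrank with gap length. For C/EBPα the share was 28.7% at 150 to 299 bp, 24.4% at 300 to 599 bp and 11.7% at 600 to 1500 bp. The last of these was close to the share in regions. For Hoxa9 the shares in these length classes were 54.6%, 50.4% and 42.8%. Within bins of fold enrichment the gap share was the higher one in 5 of 5 for each factor. In the strongest bin it was 56.8% in gaps against 50.9% in regions for Hoxa9, and 33.3% in gaps against 19.2% in regions for C/EBPα. For Hoxa9 the intervals of gaps and regions overlapped in every bin, which by itself does not show that the shares were alike. In bin 3 of 5 the share was 47.1% (37.8 to 56.4%) in gaps and 36.0% (32.9 to 39.3%) in regions. For C/EBPα they overlapped in the weakest bin and the next and were separate in the stronger ones.

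The H3K4me1 regions on the 2 sides of a gap were widest where both factors lay between them. The summed width of both flanks had a median of 2662.5 bp (quartiles 1678.75 and 4417.75 bp) for gaps with both factors and 2151 bp for gaps with Hoxa9 alone. It was 2004 bp for gaps with C/EBPα alone and 1907 bp (quartiles 1266 and 3061 bp) for gaps with neither. The classes overlapped broadly, yet the median for both factors exceeded that for neither on 20 of 20 chromosomes, 2706 ± 644 bp against 1878 ± 157 bp (mean ± SD over chromosomes). For gaps hit by moved summits the median was 2195 bp for both, 1891 bp for Hoxa9 alone, 2067 bp for C/EBPα alone and 1920 bp for neither. Pooled over lengths, flanks of gaps with C/EBPα alone were thus slightly wider than with neither, but narrower than their moved level. Moved summits fell in longer gaps, and the comparison differed by length. With C/EBPα alone the median was 2295 bp, against 1939.5 bp after the move, in gaps of 150 to 299 bp. It was 2084 bp against 2070.5 bp at 300 to 599 bp, and 1868 bp against 2094.5 bp at 600 to 1500 bp.

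The narrower of the 2 flanks separated the classes more clearly. Its median was 889.5 bp with both factors, 652 bp with Hoxa9 alone, 629 bp with C/EBPα alone and 512 bp with neither. Moved summits gave 549, 512, 528 and 517 bp for these classes in the same order. Both flanks were 1000 bp or wider in 43.9% (38.9 to 49.1%) of gaps with both factors, 31.6% of those with Hoxa9 alone, 26.5% of those with C/EBPα alone and 16.2% (15.7 to 16.6%) of those with neither. Among gaps hit by both moved summits the share was 18.3%. Flanks were also more even in width where factors lay between them: the wider was over 2 times the narrower in 35%, 39.3% and 38.5% of gaps with both, Hoxa9 alone and C/EBPα alone, and in 45.8% of gaps with neither.

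Read the other way, the factor content of gaps went up with the narrower flank. When the gaps were split into 5 equal bins by that width, 1.10% of the bin with the smallest (299 to 440 bp) held Hoxa9, and in the following bins 1.32%, 1.53% and 1.97% did. In the bin with the largest (912 to 9517 bp) 4.39% (3.89 to 4.94%) held Hoxa9. The moved summits hit between 0.472 and 0.532% of gaps in every bin. For C/EBPα the share was 3.37% in the first bin and 8.77% in the last, against 2.0 and 2.34% of gaps hit by moved summits. Gaps with both factors made up 0.609% of the first bin and 2.98% of the last.

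The flanks of bound gaps also carried more tags for their width. Tags per kb of flank had a median of 51.9 with both factors, 48.0 with Hoxa9 alone, 46.1 with C/EBPα alone and 44.7 with neither. Moved summits gave 46.3, 44.8, 46.0 and 44.8 for these classes. Pooled over lengths, the observed and moved medians thus nearly coincided for C/EBPα alone, while both factors and Hoxa9 alone lay above their moved levels. By length, C/EBPα alone had 49.3 against 45.6 after the move in gaps of 150 to 299 bp. It had 46.9 against 46.4 at 300 to 599 bp, and 44.5 against 46.0 at 600 to 1500 bp. The value for both factors was higher than that for neither on 20 of 20 chromosomes, 51.8 ± 4.8 against 44.3 ± 1.7 tags per kb. Width and tags per kb come from the same rows of 1 library and are not independent measurements. The mean fold enrichment of the 2 flanks had medians of 6.35, 5.77, 5.45 and 5.09 in the 4 classes.

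The difference between gaps with both factors and gaps with neither was also seen within classes of gap length, while the classes with 1 factor did not keep their order. In gaps of 150 to 299 bp the summed flank width had a median of 3185 bp with both factors and 1883 bp with neither. In gaps of 300 to 599 bp it was 2663 bp with both and 1900 bp with neither, and in gaps of 600 to 1500 bp 2396 bp with both and 1927 bp with neither. In that longest class Hoxa9 alone had 1859 bp and C/EBPα alone 1868 bp, below the value for neither. In the shortest class Hoxa9 alone had 2279 bp and C/EBPα alone 2295 bp, and in the middle class 2070 and 2084 bp. Flanks were thus not wider with Hoxa9 alone than with C/EBPα alone in any of these classes. Tags per kb were 54.9 with both and 44.9 with neither in the shortest class, and 49.3 with both and 44.6 with neither in the longest. Part of the difference was also seen with moved summits. From the shortest to the longest class their flank widths were 2618, 2241 and 2122 bp with both, and 1911, 1921 and 1923 bp with neither. Their tags per kb were 51.0 with both and 45.2 with neither in the shortest class, and 45.9 and 44.6 in the longest.

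Gap length was similar with both factors and with neither, and it differed between the classes with 1 factor. The median was 495.5 bp with both factors, 414 bp with Hoxa9 alone, 630 bp with C/EBPα alone and 512 bp with neither. Gaps with both factors were longer than those with neither on 8 chromosomes and shorter on 12, and the sign of this difference also turned with the length bounds, with medians 67 bp longer for both factors in gaps of 150 to 750 bp. The quartiles of Hoxa9 alone (255 and 666 bp) and of C/EBPα alone (348 and 1064 bp) overlapped. Moved summits selected longer gaps, with medians of 900.5, 788 and 863 bp for both, Hoxa9 alone and C/EBPα alone, because a long gap is a larger target. Against that level the gaps of all 3 bound classes were short.

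**Figure D5:**
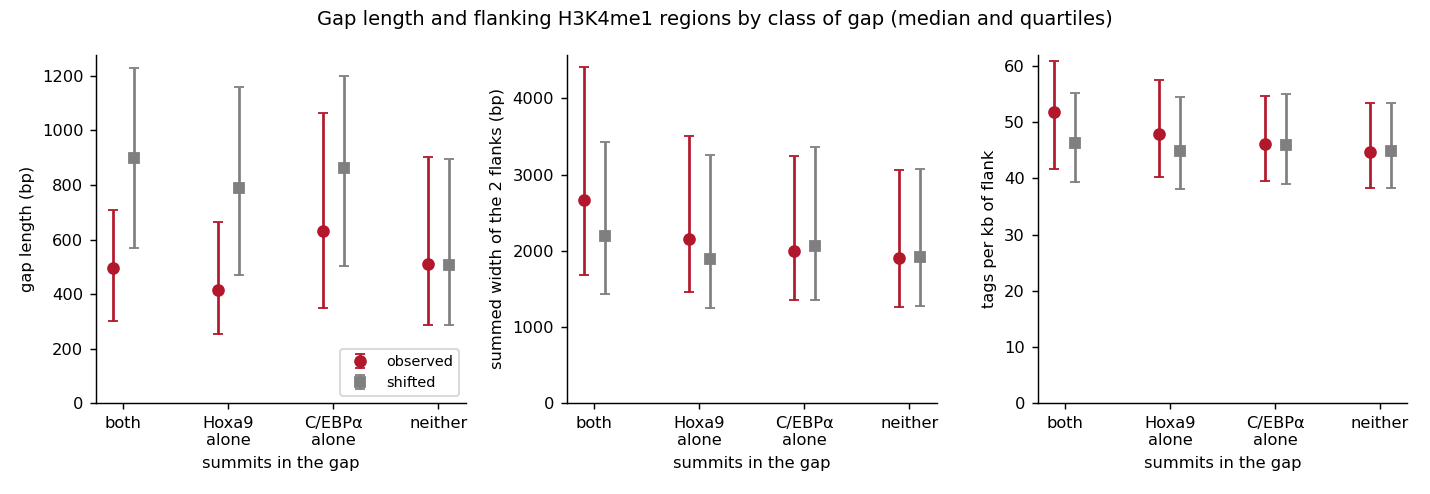
Gap length in bp, summed width of the 2 flanking H3K4me1 regions in bp, and tags per kb of flank (y axes) for gaps with both factors, Hoxa9 alone, C/EBPα alone and neither (x axes). Points are medians and bars run from the lower to the upper quartile, red for observed summits and grey for summits moved by 10 to 50 kb. Gaps with both factors have a median length of 495.5 bp against 900.5 bp after the move, and flanks of 2662.5 bp against 2195 bp.

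Bound gaps seldom lay in chromatin of the H3K27me3 list, the mark laid down by Polycomb repressive complexes. An H3K27me3 region overlapped, by at least 1 bp, 1 of 380 gaps with both factors and 0 of 247 with Hoxa9 alone, a count of 0 that, taken as up to 3 gaps, allows a share of up to 1.21% (exact 95% limit 1.48%). It overlapped 20 of 1201 gaps with C/EBPα alone, 1.67% (1.02 to 2.56%), and 1333 of 28553 gaps with neither, 4.67% (4.43 to 4.92%). Moved summits gave 1.51%, 1.07%, 3.12% and 4.50% for these classes. Low shares were thus also seen for gaps hit by moved summits, and the interval for both factors (0.00666 to 1.46%) ended just below the moved share while overlapping its interval (0.781 to 2.62%).

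The excess of summits in gaps appeared on every chromosome. The share of gaps with Hoxa9, with C/EBPα and with both was above the moved level on 20 of 20 chromosomes. Autosomes ranged from 1.32 to 3.33% for Hoxa9 and from 3.93 to 7.47% for C/EBPα. The X chromosome had few gaps and the highest shares: 16 of 324 held Hoxa9, 4.94% (2.85 to 7.90%), and 49 of 324 held C/EBPα, 15.1%.

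The 10 gaps with the highest summed fold enrichment of both factors, all in mm9 coordinates, illustrate the class. The first was chr8:82786887-82787931, a gap of 1045 bp in which the Hoxa9 peak had 285 tags and a fold enrichment of 40.3. The C/EBPα peak there had 207 tags and a fold enrichment of 51.8, and its summit lay 35 bp from that of Hoxa9. H3K4me1 regions of 1033 and 2103 bp flanked it, with 52.3 and 73.7 tags per kb.

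In chr15:34026198-34026819, a gap of 622 bp, C/EBPα was the stronger factor with a fold enrichment of 71.3, and Hoxa9 had 11.2 at a summit 84 bp away. The gap chr10:6280234-6280693 was 460 bp long and combined 23.6 for Hoxa9 with 58.3 for C/EBPα, 47 bp apart. The gap chr11:86417172-86417430 was short, 259 bp, and held Hoxa9 at 25.4 and C/EBPα at 55.6 with summits 27 bp apart. The gap chr9:107182756-107183378 lay beside an H3K4me1 region of 20176 bp, and its Hoxa9 peak was weak, with 18 tags and a fold enrichment of 4.17, beside C/EBPα at 76.0.

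The remaining 5 of these gaps were 293 to 951 bp long, with summits of the 2 factors 16 to 128 bp apart. None of the 10 touched an H3K27me3 region.

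Among gaps with Hoxa9 alone the strongest peak, with a fold enrichment of 27 and 160 tags, lay in chr11:109611477-109612165, 65 bp from the centre of a gap of 689 bp. The next lay in chr8:70637914-70638289 with 26.0, in chr15:103135507-103136029 with 25.2, in chr4:102711811-102712021 with 23.5 and in chr14:22467852-22468113 with 22.7. In these 5 gaps the weaker flank had 44.3 to 57.4 tags per kb.

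Among gaps with C/EBPα alone the strongest peak had a fold enrichment of 83.1 and 464 tags. It lay in chr4:116793103-116793553, between a narrow H3K4me1 region of 445 bp with 14 tags and a wide one of 7262 bp with 458 tags. Another of the 5 named, chr7:57033266-57034499, was 1234 bp long, and its C/EBPα peak of 60.6 lay between 2 regions of 437 bp with 14 tags each, the fewest in the list. Strong C/EBPα binding thus occurred between weak H3K4me1 regions as well as between strong ones.

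Gaps with neither factor but heavily tagged flanks were of another kind. The 3 with most tags per kb in the weaker flank lay next to each other on chromosome 2, chr2:98503249-98503462, chr2:98504350-98504785 and chr2:98505763-98506013. Their flanking regions had 621 to 2312 tags per kb but a fold enrichment of only 1.22 to 3.21. Leaving out every gap beside a region of 500 or more tags per kb left the ratio to moved summits at 4.06 for Hoxa9 and 2.48 for C/EBPα.

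The sequences and genes at these gaps are not shown, because a genome or annotation of mm9 was not used here.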

How the data were processed

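ChIP-seq peak lists of 4 precipitations were used, each called separately in 1 library. The submitters' processing notes name MACS 1.4, BWA 0.6.2 and CASAVA 1.8.2, and mm9 as the mouse build. Which settings and control library the caller had is not given in the sources used here. Each row, per the file headers, gives a position, a length and a summit made by the authors' caller. The deposited tag counts are whole numbers per peak, not normalized. The deposited score is a −log10 p-value times 10 from that caller. Its deposited fold enrichment is a linear ratio, and its deposited false discovery rate in percent was not used here. The tag count limits how precisely weak peaks are placed, since the lists go down to between 14 and 20 tags.

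Gaps ran from the end of one H3K4me1 row plus 1 bp to the start of the next minus 1 bp, and a summit lay at start plus offset minus 1. Rows of 1 list did not overlap. Summits were moved as described above with no p-value computed, and a moved summit was kept wherever it landed. Tags per kb of flank are the summed tags over the summed length of the 2 flanking regions. Named gaps followed a rule: the 10 gaps with both factors with the highest summed fold enrichment, the 5 gaps each with Hoxa9 or C/EBPα alone with the highest fold enrichment, and the 5 gaps with neither whose weaker flank had most tags per kb. Counting was checked on planted gaps and summits. Python 3.11.15, numpy 2.4.6, pandas 2.3.3, scipy 1.17.1 and matplotlib 3.10.9 were used. The classes, bounds and measures were chosen with earlier results of these data known. Alternatives for gap length, peak strength, distance of the move, overlap and edges are given in the closing section.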

Additional observations from a re-analysis of the deposited data

How the results depend on the processing

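Over 15 settings, 194 values of 16 results were computed. Of these, 124 stayed within the spread of the main value and 70 left it, 36 of them with a change of over 1.5 times. The spread was the exact interval for shares and density ratios, and that of the observed share alone for ratios to moved summits. For differences in medians it was 1 SD over chromosomes, which is not the error of the value over all chromosomes. The counts thus rest on unlike measures of spread. The difference in median gap length, both minus neither, changed sign within its spread over chromosomes: it was -16.5 bp, but 67 bp in gaps of 150 to 750 bp and 56 bp with summits at least 50 bp from the edges. The cause was not tested. The values follow in the order Hoxa9, C/EBPα, both. In gaps of 150 to 750 bp the shares of gaps with a summit were 2.41%, 4.94% and 1.46% and the ratios to moved summits 7.44, 3.78 and 9.83, and the density ratio of gap to window for C/EBPα was 1.51. In gaps of 150 to 3000 bp the shares were 1.74%, 5.71% and 1.03%, the ratios 2.07, 1.69 and 2.14, the density ratio for C/EBPα 1.22, and the difference in median gap length -243 bp. In gaps of 300 to 1500 bp the C/EBPα share was 5.6% and the ratios 3.22, 2.18 and 3.91. With H3K4me1 regions of fold enrichment 5 or more (8533 gaps) the shares were 4.39%, 8.97% and 2.88% and the ratios 7.80, 3.78 and 9.32. With the upper 50% of H3K4me1 regions by score (9828 gaps) they were 4.06%, 8.49% and 2.64%, with ratios of 6.68, 3.40 and 7.78. The difference in median C/EBPα fold enrichment between gaps and regions, 1.44, was 3.05 and 3.33 under these 2 settings. With factor peaks of fold enrichment 10 or more the shares were 0.592%, 2.57% and 0.309%, the ratios 5.83, 3.27 and 6.44 and the density ratios 2.75 and 1.88. The flank differences between both and neither were then 1640 bp, against 755.5 bp, and 12.4 tags per kb, against 7.21. With the upper 50% of factor peaks by score the shares were 1.4%, 3.22% and 0.760%, the ratios 5.05, 2.88 and 6.0 and the density ratios 2.64 and 1.65. Counting any overlap of a factor peak gave shares of 3.66%, 10.5% and 2.52% and ratios of 3.24 for Hoxa9 and 3.67 for both, and gave no positions, densities or fold enrichments because these need summits. Keeping summits at least 50 bp from the edges gave shares of 1.62%, 4.12% and 0.908% and ratios of 2.36 for C/EBPα and 4.29 for both. It put 47.3% of Hoxa9 and 41.3% of C/EBPα summits in the central 33.3% of the gap, by construction more than over the whole gap. Moves of 2 to 10 kb gave ratios of 2.30, 1.60 and 2.62, moves of 200 to 1000 kb gave 8.98, 5.26 and 12.5, and moves in opposite directions gave 60.3 for both. Leaving out gaps that overlap H3K27me3 gives no value for that share. The setting without gaps beside regions of 500 or more tags per kb was chosen after seeing the data. No replicate could be left out with 1 library per precipitation. No paired analysis was possible because each group has 1 library. The smallest rows of the lists rest on 14 to 20 tags.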

Other observations

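Gaps often followed one another. A flank that also bordered another gap was found for 47.1% (42.0 to 52.3%) of gaps with both factors, 52.2% of those with Hoxa9 alone, 48.0% of those with C/EBPα alone and 54.9% (54.3 to 55.4%) of those with neither. Gaps hit by both moved summits had 60.6% (57.1 to 64.0%). The H3K4me1 summits of the flanks lay at a mean distance from the gap edge with a median of 585.75 bp for both factors and 448.5 bp for neither.

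Spaces outside the length bounds held summits as well. In spaces of 50 to 99 bp Hoxa9 lay in 27 of 4569 (0.591%, against 0.0503% after the move) and C/EBPα in 57 (1.25%, against 0.208%). In spaces of 1501 to 1750 bp Hoxa9 lay in 21 of 2541 (0.826%, against 1.27% after the move) and C/EBPα in 155 (6.10%, against 5.16%).

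Among gaps with Hoxa9 alone 9.72% of the Hoxa9 summits still had a C/EBPα summit within 100 bp, in the region next to the gap. The nearest C/EBPα summit had a median distance of 2274 bp in that class. Among gaps with C/EBPα alone 1.74% of the C/EBPα summits had a Hoxa9 summit within 100 bp.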
